A study of Mus musculus with 23 samples.

Results

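Microglia of control offspring were compared 18 hours after an injection of bacterial lipopolysaccharide (LPS) or of saline. The comparison takes every library that the labels place in the groups CON_LPS (n = 7) and CON_SAL (n = 5), which makes 12 of the 23 libraries of the series. All were ATAC-seq libraries of striatal cells sorted from male mice, 8 to 10 weeks old, that had no maternal exposure. LPS was given into the peritoneum at 4500 endotoxin units per gram. The cells were live, CD11b+, CD45-low and P2RY12+, taken after removal of the meninges and papain digestion. The other 11 libraries came from offspring of dams with maternal immune activation (MIA), given saline (MIA_SAL, n = 6) or LPS (MIA_LPS, n = 5) in the same way, and were used only to ask whether an LPS effect differed in control offspring. The labels do not name the agent of the maternal activation. The sample IDs in the labels hold a number that some libraries share: 13 in CON_SAL replicates 4 and 5, 22 in CON_LPS replicates 1 and 6, 15 in CON_SAL replicate 1 and CON_LPS replicate 4, and 2 in CON_SAL replicate 3 and CON_LPS replicate 3. The IDs as a whole differ. What the number stands for is not stated, nor whether each library had its own animal, and p-values therefore describe only the spread between libraries, part of which may be technical.

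Microglia are the resident macrophages of the brain. LPS is sensed by the receptor TLR4, whose adaptors lead to the transcription factors NF-kB, AP-1 and the interferon regulatory factors. These bind promoters and enhancers of cytokine, chemokine and feedback inhibitor genes, often beside the myeloid factor PU.1. Resting microglia keep a homeostatic program that depends on TGF-beta signalling and on the factor SALL1, and they are known to lower parts of it when activated. ATAC-seq marks DNA that a transposase can reach, so a peak is a stretch of open chromatin and not a measure of transcription.

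Openness was compared as a rank. In each library the 33900 best peaks on chromosomes 1 to 19 and X were ranked by the authors' −log10 p, from 100 for the best down towards 0. Overlapping peaks were merged into intervals, and an interval took the rank of its best peak in each library, or 0 where that library had no peak among its best 33900. A rank of 0 therefore does not show closed chromatin. An interval was tested when 3 or more of the 12 libraries had a peak in it, which left 38869 with a median width of 472 bp. In sorted bulk cells, fewer cells with an open site and less opening per cell cannot be told apart. Every position below is on build mm10 (GRCm38). An interval is named after the protein-coding gene whose end is closest, up to 100 kb away, or of a listed gene within 20 kb, which does not show that it controls that gene. Exons and introns were not separated.

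The deposited lists of the 12 libraries held between 37284 and 53918 peaks, and the lowest −log10 p kept ranged from 5.62 to 12.3. The number of deposited peaks (43902 ± 6896 in saline, 42459 ± 4524 in LPS, SD) gave an exact two-sided permutation p of 0.654. The median fold (p = 0.641), the share of peaks within 1 kb of a gene end (p = 0.962) and the number of sorted cells (p = 0.848) were compared by the same exact permutation test, and the smallest Benjamini-Hochberg adjusted value over the 4 measures was 0.962. Across intervals, the median Spearman correlation of a library with its own group was 0.838 to 0.877, and with the other group 0.748 to 0.791. No read counts were used here, so the sequencing depth is unknown.

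Markers of the sorted cells were looked up at their starts. Of 22 homeostatic microglia genes with a start in the table, 13 had a peak over it in all 12 libraries, among them Sall1, Cx3cr1 and Tgfbr1, and 1 (Slc2a5) had no tested interval there. The start of P2ry12, the gate's own receptor, had a peak in 4 of 12. No tested interval lay over the start of any of 13 lymphocyte genes, of 9 of 10 border-associated macrophage genes, or of 15 of 19 monocyte and neutrophil genes, including Ly6c2, Ccr2, Ly6g, Mpo and Elane. The same held for 12 of 15 neuronal, 7 of 12 astrocyte, 9 of 10 oligodendrocyte and 9 of 12 endothelial genes. Of the 4 monocyte and neutrophil genes with a tested interval over the start, none was called. S100a8 (saline 0, LPS 0 to 28.9, adjusted p = 0.166) and Camp (saline 0, LPS 0 to 46.6, adjusted p = 0.234) had peaks in LPS libraries alone, S100a4 in saline libraries alone (0 to 35.6, adjusted p = 0.0606), and Csf3r in all 12. The starts of Rgs9, Slc1a3 and Cnp, listed for neurons, astrocytes and oligodendrocytes, also had a peak in all 12.

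LPS changed openness at many intervals in control offspring, in both directions. By limma with Benjamini-Hochberg adjustment over all intervals, 4639 (11.9%) passed an adjusted p of 0.05: 2614 were gained (6.73%) and 2025 were lost (5.21%). The median difference (LPS minus saline) was 33.1 ranks among the gained and −29.1 among the lost, against −0.59 over all intervals. Every LPS library lay above every saline library at 1510 of all intervals (3.88%), and below at 882 (2.27%). Of the gained intervals 1454 had such non-overlapping groups, and of the lost 797. When peaks were ranked by the authors' fold in place of −log10 p, 1626 of the gained (62.2%) and 1039 of the lost (51.3%) were called again and none changed direction. In the 7 libraries of fewer than 20000 sorted cells 394 intervals were gained and 142 lost, and in the 5 libraries of more cells 359 were gained and 907 lost. The balance between gains and losses thus differed between the 2 classes of sorted cells. In the class with more cells both saline libraries share the ID number 13, and CON_LPS replicates 1 and 6 share 22. Its saline and LPS sides may therefore not hold independent sources. With the ID number as a random block 2613 intervals were gained and 1932 lost, and the fit with that class as a covariate gave 2636 and 2122.

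**Figure D1:**
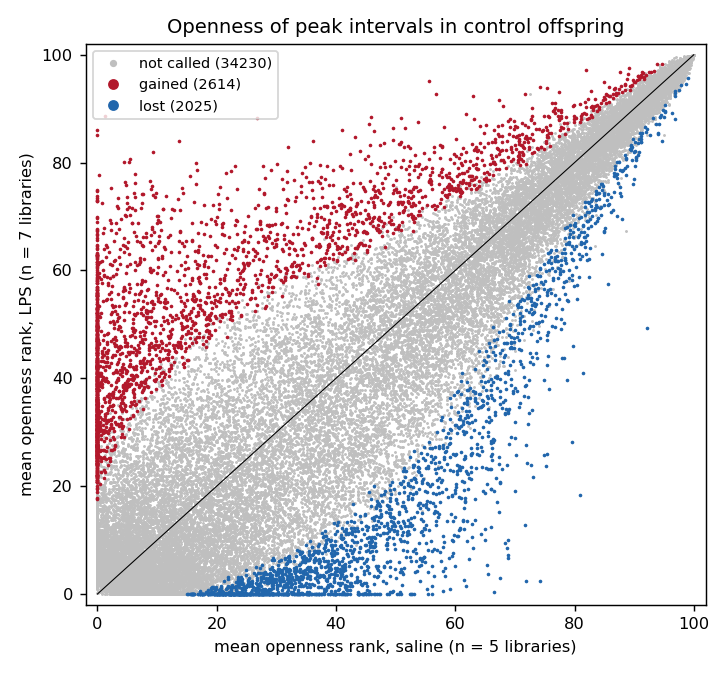
Mean openness rank of each of the 38869 tested intervals in saline (x axis, n = 5) and LPS (y axis, n = 7) libraries of control offspring, each point an interval and the line marking equal ranks. The 2614 gained intervals (red) lie above the line, many of them at a saline mean of 0, and the 2025 lost ones (blue) below it.

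Most changes were graded or partial and were not a switch from no peak to a peak. Of the gained intervals 718 had no peak in any saline library, 866 (33.1%) had a peak in all 12 libraries and changed in rank alone, and 1030 lay in between. Of the lost intervals 368 had no peak in any LPS library, 517 (25.5%) had a peak in all 12, and 1140 lay in between. Presence alone, tested by a two-sided Fisher's exact test of how many libraries had one, called 624 of 4656 intervals that could reach a p of 0.01 (13.4%), of which 498 were gained (10.7%) and 126 lost (2.71%). Every presence call had a Fisher p of 0.00126, which needs a peak in all libraries of a group and in none of the other. This form was set by the restriction, which admits only intervals with a peak in exactly 5 or exactly 7 of the 12 libraries. No change that left a peak in some libraries of the lower group could reach a p of 0.01. At 0.00126 a gain needs 7 libraries with a peak and a loss 5. Both shares therefore count intervals that could not reach that p in their direction. Gains made up 79.8% of the calls by presence and 56.3% of the calls by rank, but these shares cover unlike changes. Without that restriction, over all 38869 intervals, Fisher's test made no call (smallest adjusted p = 0.0786) with 3495 intervals at an unadjusted p under 0.05. The smaller number of saline libraries limits what presence can call in either direction.

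Changes lay away from genes' ends more often than at them. Of 11290 intervals between genes 9.07% were gained and 6.35% lost, and of 15858 within gene bodies 7.92% were gained and 6.46% lost. Within 1 kb of a gene end it was 2.85% and 2.42% of 11721 intervals. Intervals at gene ends also differ in how often they carry a peak, but among those with a peak in all 12 libraries the order was the same: 2.41% gained and 1.68% lost at gene ends, 7.58% and 4.27% elsewhere. These shares are descriptions of intervals, which are not independent replicates.

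The largest gains were intervals that went from no peak, or a weak one in 1 to 3 saline libraries, to the upper part of every LPS list. At chr2:32867428-32867880, 8254 bp from Niban2, which encodes an apoptosis-related protein, no saline library had a peak and the LPS libraries ranked 80.9 to 89.5 (median 86.4). The difference was 86.1 ± 6.03 ranks (SE, adjusted p = 1.91e-08). At chr3:83884926-83885595, 12610 bp from Tmem131l, the saline ranks were 0, 0, 0, 6.56 and 0, and the LPS ranks 82.5 to 95.5 (median 90.8), a difference of 87.3 ± 5.93 (adjusted p = 1.91e-08). At chr2:119262897-119263470 near Rhov saline had no peak and LPS ranged from 76.2 to 89.8 (difference 85.1 ± 6.19, adjusted p = 2.66e-08). The 12 largest gains were chosen from intervals called by both rankings whose groups did not overlap, so the lack of overlap is no further result.

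Others of the 12 largest gains lay near genes with known roles in lysosomes, transcription and signal feedback. Scarb2, a lysosomal membrane protein, had a gained interval in its gene body at chr5:92486756-92487151 with saline ranks of 0, 1.04, 0, 0 and 0 against 73.2 to 88.1 after LPS (difference 77.5 ± 6.90). The interval at chr4:136116927-136117533, 26289 bp from Id3, an inhibitor of helix-loop-helix factors, had no saline peak and LPS ranks of 65.0 to 84.5 (difference 74.9 ± 7.35). The interval at chr17:26514584-26515224, 6112 bp from Dusp1, had no saline peak and LPS ranks of 64.2 to 79.7 (difference 72.8 ± 7.28). Dusp1 encodes a phosphatase that switches off MAP kinases and is a textbook target of both LPS and glucocorticoids. Dab2, an endocytic adaptor, held a gained interval in its body (difference 73.1). The remaining 5 lay near Tmem230, Arhgef37, Azin1 and Slc37a3 and, for LOC115489748, inside the neighbouring Anxa9, with differences of 73.0 to 75.1.

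**Figure D2:**
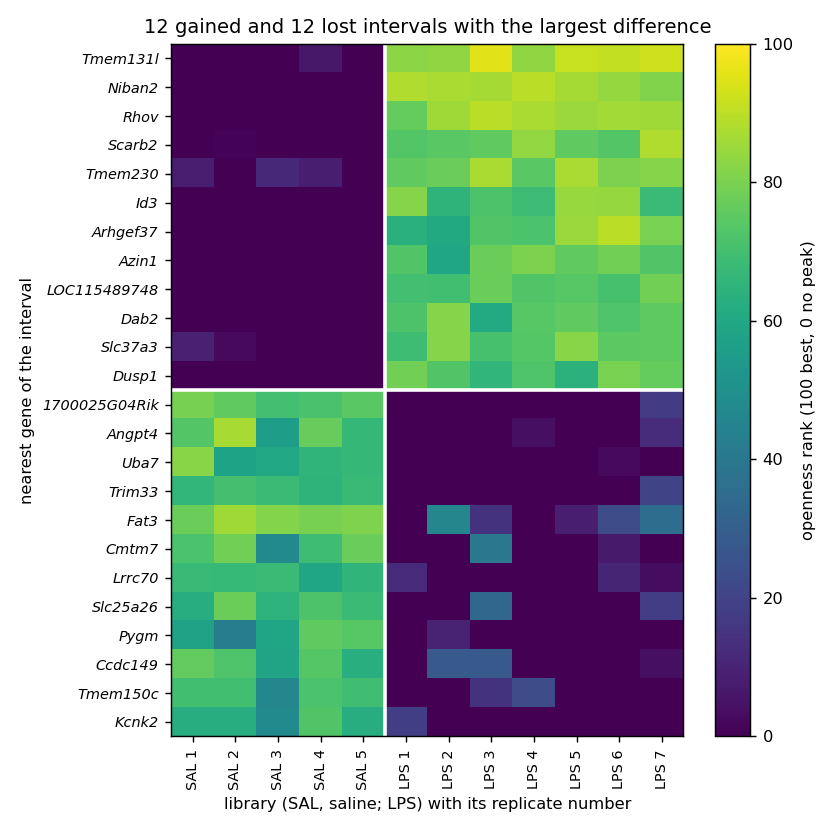
Openness rank (colour, 0 for no peak to 100 for the best) of the 12 gained (upper block) and 12 lost (lower block) intervals with the largest difference, each row an interval named by its nearest gene and each column a library. All 7 LPS libraries are high in the upper block and all 5 saline libraries in the lower block, while 5 LPS libraries keep a weaker peak at the lost interval of Fat3 and 2 at that of Cmtm7.

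The 12 largest losses had a peak in every saline library, which non-overlapping groups require, and in 1 to 5 of the 7 LPS libraries. The interval farthest down, chr1:152167736-152168703, lay 76615 bp from 1700025G04Rik. Its saline ranks were 79.3, 75.6, 70.3, 71.5 and 74.3, and 1 of 7 LPS libraries had a peak there, at rank 17.5 (difference −71.7 ± 8.06, adjusted p = 6.37e-06). At Uba7, the enzyme that activates the interferon-induced ubiquitin-like protein ISG15, the interval chr9:107983310-107983927 within 129 bp of a gene end had saline ranks of 82.4, 58.2, 59.6, 65.6 and 66.5. LPS left 1 peak, at rank 2.35 (difference −66.1 ± 8.05, adjusted p = 1.28e-05). The interval near Trim33, a regulator of SMAD4 in TGF-beta signalling, ranked 65.1 to 70.6 in saline and had 1 LPS peak at 20.6 (chr3:103400942-103401824, difference −64.6 ± 8.12). Fat3, Cmtm7, Slc25a26 and Ccdc149 held lost intervals in their bodies, Tmem150c and Kcnk2 had them outside, and Angpt4, Lrrc70 and Pygm had them over their starts, with differences of −69.5 to −58.9.

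Where a peak was present in all 12 libraries, 866 of 17514 intervals were gained (4.94%) and 517 were lost (2.95%). The largest of these gains was in the body of Tmem63a, a mechanosensitive ion channel, at chr1:180944540-180945112. Its saline ranks were 27.8, 28.1, 14.5, 19.2 and 18.1, and its LPS ranks 66.9 to 85.4 with a median of 79.0 (difference 56.5 ± 5.83, adjusted p = 2.55e-06). An interval 3987 bp from Id1, a relative of Id3, went from 4.38 to 36.4 in saline up to 63.9 to 81.2 in LPS (chr2:152741397-152742157, difference 51.8 ± 6.86). The other 6 lay near Mylk2, Agr3 and Atp6v1g3, in Arhgef7 and Ntpcr, and near Rnf222, with differences of 50.95 to 56.2. All 8 were chosen from intervals whose groups did not overlap.

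Graded losses with a peak retained in every library included some of the strongest saline peaks. At chr16:11282536-11283321, 28211 bp from Gspt1, a translation termination factor, saline ranked 92.9, 96.0, 83.8, 92.4 and 95.4. LPS ranked 21.8 to 64.2 (median 53.4), a difference of −42.8 ± 5.45 (adjusted p = 2.08e-05). The interval in Pmepa1, a feedback inhibitor of TGF-beta signalling, fell from 56.8 to 69.6 in saline to 8.71 to 53.5 in LPS (difference −40.2 ± 8.77, adjusted p = 0.00391). Tanc1, Ssbp2, Zfp608, 1110002E22Rik and Zswim4 also held or lay near such losses, with differences of −49.5 to −39.1.

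Over the starts of genes changes were fewer, 188 gained (2.21%) and 187 lost (2.2%) of 8508 intervals. The largest were listed after their values had been seen, as those called by both rankings with non-overlapping groups. At Cxcl2, a chemokine that attracts neutrophils, the interval chr5:90903026-90903950 had saline ranks of 11.3, 43.9, 34.0, 0 and 0. Its LPS ranks ran from 55.3 to 74.5 with a median of 64.9 (difference 48.8 ± 8.46, adjusted p = 0.00052). At Mt2, a metal-binding metallothionein, chr8:94172159-94172968 had saline ranks of 12.5, 35.0, 43.2, 0 and 0 and LPS ranks of 57.5 to 87.6 with a median of 67.6 (difference 50.5 ± 8.77, adjusted p = 0.000531). At both starts 2 saline libraries had no peak and every LPS library exceeded every saline one.

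Receptors and costimulatory molecules were among the gained starts too. Cd80, a T cell costimulator, had no saline peak over its start at chr16:38458704-38459052 and LPS ranks of 32.1 to 64.6 (difference 52.2 ± 8.50, adjusted p = 0.000292). Trem1, a receptor that amplifies inflammation, had no saline peak and LPS ranks of 4.22 to 65.7 with a median of 62.1 (difference 50.8 ± 10.2, adjusted p = 0.00195). For Trem1 the exact permutation test of each interval gave an adjusted p of 0.053. Cd44, a hyaluronan receptor, went from 4.18 to 46.3 in saline up to 57.0 to 75.6 (difference 45.3 ± 8.09). Smim14, Parvg, Slco2b1, Map3k6, Ntpcr, Shc1 and Pi16 made up the rest of the 12, with differences of 45.2 to 59.0.

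Of the 22 homeostatic microglia genes with a start in the table, 4 lost it, against 2.2% of all intervals over a start. They were Sparc, Olfml3, Fcrls (difference −30.6, adjusted p = 0.0362) and Crybb1 (difference −36.7, adjusted p = 0.00427). The start of Slco2b1 was gained, that of Slc2a5 had no tested interval, and the rest were not called. At Sparc, a secreted matrix protein, chr11:55419559-55420315 had saline ranks of 67.4, 79.3, 70.2, 73.2 and 69.8 and LPS ranks of 0 to 55.3 with a median of 21.7 (difference −47.6 ± 8.99, adjusted p = 0.00117). Olfml3, a secreted glycoprotein of microglia, ranked 51.6 to 64.7 in saline and 0 to 44.6 in LPS at its start (difference −41.1, adjusted p = 0.00647). Il7r, the interleukin-7 receptor, ranked 37.8, 46.6, 58.1, 49.8 and 56.5 in saline and 0 to 31.7 in LPS (difference −38.1 ± 8.83, adjusted p = 0.00631). Gimap6, an immune GTPase, had 1 LPS peak, at rank 13.7, and a peak at rank 19.6 or above in all 5 saline libraries (difference −39.0 ± 7.83). The others of the 12 largest were Angpt4, Lrrc70, Pygm, Neurog3, Zfp551, Kcnj16, Matk, Zfp454 and Fam13a, with differences of −69.5 to −42.8.

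**Figure D3:**
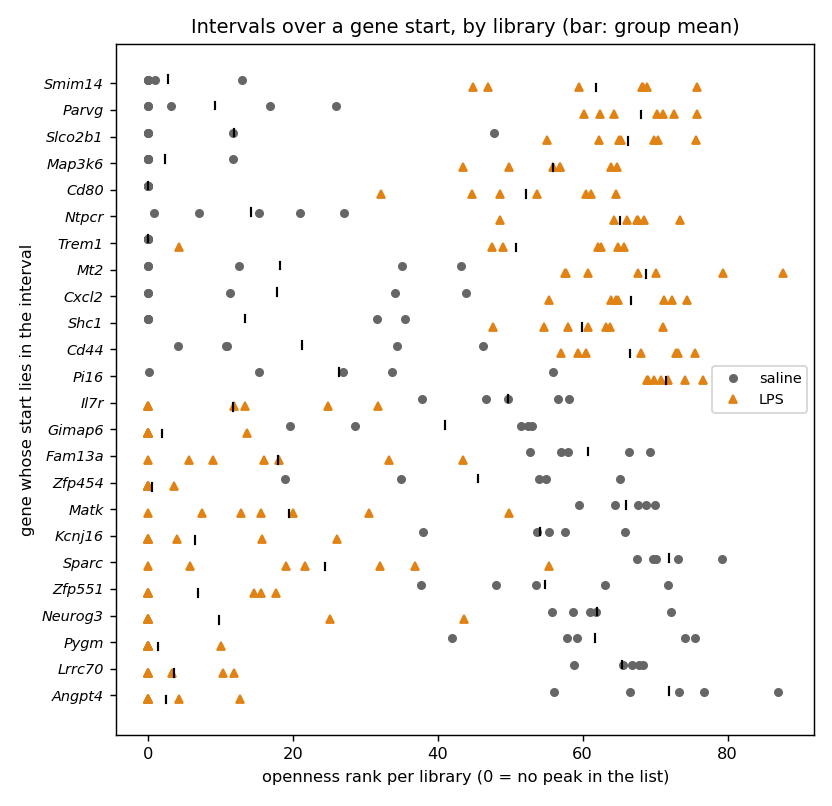
Openness rank in each library (x axis, 0 where the list had no peak) for the 12 gained and 12 lost intervals over a gene start, one gene per row, with saline libraries as grey circles, LPS libraries as orange triangles and group means as short bars. Rows were chosen so that the 2 groups do not overlap. Many saline points of the gained starts and LPS points of the lost starts sit at 0.

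The 200 bases before the gene start (RefSeq, GRCm38.p6) are shown for some of these starts, because their letters hold matches to sites that LPS-responsive factors are known to bind. Each runs 5′ to 3′ along the strand of its gene, and capitals mark matches on either strand to the NF-kB site (GGG and TTTCC with 2 bases between), the AP-1 site TGANTCA, the C/EBP site TTGCNNAA or the glucocorticoid receptor site (GNACA and TGTNC with 3 bases between). The windows are chr5:90903699-90903898 (Cxcl2, plus strand), chr8:94172418-94172617 (Mt2, plus), chr16:38458733-38458932 (Cd80, plus), chr3:89421421-89421620 (Shc1, plus), chr5:65484062-65484261 (Smim14, minus), chr4:133240618-133240817 (Map3k6, plus) and, as a lost start, chr11:55420081-55420280 (Sparc, minus).
Cxcl2: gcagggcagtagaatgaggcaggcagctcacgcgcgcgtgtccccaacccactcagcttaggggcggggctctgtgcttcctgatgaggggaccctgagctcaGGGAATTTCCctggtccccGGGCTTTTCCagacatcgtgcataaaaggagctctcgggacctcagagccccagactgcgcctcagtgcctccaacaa
Mt2: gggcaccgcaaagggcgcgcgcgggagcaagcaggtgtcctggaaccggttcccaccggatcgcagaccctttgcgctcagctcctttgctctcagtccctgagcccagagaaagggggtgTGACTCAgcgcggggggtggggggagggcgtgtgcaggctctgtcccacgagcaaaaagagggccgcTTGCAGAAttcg
Cd80: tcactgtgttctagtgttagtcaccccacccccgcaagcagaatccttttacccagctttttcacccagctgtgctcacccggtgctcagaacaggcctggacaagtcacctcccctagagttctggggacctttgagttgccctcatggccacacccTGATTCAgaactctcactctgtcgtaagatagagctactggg
Shc1: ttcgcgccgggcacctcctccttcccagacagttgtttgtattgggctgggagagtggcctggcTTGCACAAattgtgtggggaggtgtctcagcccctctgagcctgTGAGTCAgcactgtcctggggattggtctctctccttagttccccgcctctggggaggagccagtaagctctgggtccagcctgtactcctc
Smim14: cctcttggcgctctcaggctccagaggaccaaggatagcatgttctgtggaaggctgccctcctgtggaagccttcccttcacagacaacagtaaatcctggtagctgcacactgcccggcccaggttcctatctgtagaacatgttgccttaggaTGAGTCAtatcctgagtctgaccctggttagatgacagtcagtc
Map3k6: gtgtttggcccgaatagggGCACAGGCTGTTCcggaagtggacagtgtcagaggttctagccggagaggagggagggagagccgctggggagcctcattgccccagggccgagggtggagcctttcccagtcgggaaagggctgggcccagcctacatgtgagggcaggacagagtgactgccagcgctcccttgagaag
Sparc: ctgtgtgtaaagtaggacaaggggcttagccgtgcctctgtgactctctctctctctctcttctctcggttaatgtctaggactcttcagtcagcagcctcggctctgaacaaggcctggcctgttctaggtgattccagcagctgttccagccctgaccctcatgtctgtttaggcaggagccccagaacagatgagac

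The Cxcl2 window holds a pair of NF-kB matches, GGGAATTTCC and GGGCTTTTCC, whose first bases lie 97 and 78 bases before the start. Mt2, Cd80, Shc1 and Smim14 each hold an AP-1 match, 79, 42, 92 and 44 bases before it. Mt2 and Shc1 also hold a C/EBP match, and Map3k6 a glucocorticoid receptor match 181 bases before its start. The Sparc window holds none of these letters, while that of another lost start, Il7r, holds a C/EBP match (TTGCTCAA) 174 bases before it. The gained windows were chosen because they hold matches, so they show no contrast with the lost ones. With 1 window of 300 bases (250 before to 50 after the start) for each interval over a start, the AP-1 letters were in 34 of 188 gained (18.1%), 5 of 187 lost (2.67%) and 362 of all 8508 (4.25%), and in 7.11% of 17274 genes with 1 window each. The C/EBP letters were in 14.9% of gained, 8.02% of lost and 7.65% of all such windows. The NF-kB letters were in 2.66%, 1.6% and 1.77%, the interferon-response letters (GAAA and GAAA with 2 bases between) in 4.26%, 2.67% and 2.72%, and the PU.1 letters GAGGAAGT in 3.72%, 4.81% and 3.29%. The glucocorticoid receptor letters were in 3 gained, no lost and 21 of all windows. These are counts of letters in the windows, with no test and no measure of binding.

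Genes of the LPS pathway itself gained intervals more than they lost them. For the NF-kB subunits and feedback inhibitors, 22 of 143 intervals within 20 kb were gained (15.4%) and 1 was lost (0.699%), against 6.73% and 5.21% of all intervals. Their median difference was 2.53 ranks against −0.59 overall. Of the 23 genes 13 had a gained interval, 1 of them with a lost one too, and 10 had neither. Nfkbiz, an inducible coactivator of NF-kB, had saline ranks of 0, 0, 0, 17.5 and 0 and LPS ranks of 43.0 to 72.1 (chr16:55798913-55799352, difference 52.1 ± 8.62). Socs3, a brake on cytokine receptors, had no saline peak and LPS ranks of 16.0 to 72.8 (chr11:117977921-117978253, difference 50.3 ± 9.43), and Zc3h12a, an endonuclease that degrades inflammatory transcripts, rose by 49.0 ± 8.50.

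Of the TLR4 signalling genes, 11 of 26 had a gained interval and 1 a lost one, with 14 gained (10.8%) and 1 lost (0.769%) of 130 intervals and a median difference of 1.38. In the body of Tlr4 at chr4:66828749-66828978 the saline ranks were 0, 0, 0, 13.9 and 6.24 and the LPS ranks 15.9 to 62.1 (difference 41.9 ± 9.19, adjusted p = 0.00416). Ikbke, a kinase that leads to interferon regulatory factors, rose from 0, 8.09, 0, 0 and 0 to 46.1 to 86.1 (difference 62.8 ± 8.63), and Traf3, an adaptor of the same arm, by 43.2 ± 8.66. All 3 intervals lay within the gene and their groups did not overlap. In the 5 libraries of more sorted cells alone, this list had no gained and 2 lost calls, with a median difference of 2.10.

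Cytokine and effector genes had 20 gained (15.3%) and 5 lost (3.82%) of 131 intervals, with a median difference of 3.52. Of 29 genes with an interval, 17 had a gain, 5 a loss and 3 of these both. The interval 2993 bp from Tlr2, the receptor of bacterial lipoproteins, had no saline peak and LPS ranks of 54.7 to 74.4 (chr3:83844817-83845505, difference 65.6 ± 7.72, adjusted p = 9.9e-06). Il12b, a subunit of interleukins 12 and 23, had no saline peak within 9437 bp at chr11:44389972-44390626 and LPS ranks of 24.0 to 69.4 (difference 54.7 ± 8.97). Near Ccl2, the monocyte chemoattractant, 1 saline library had a peak, at rank 15.1, and LPS ranked 25.1 to 74.0 (difference 50.3 ± 9.51). Markers of monocytes and neutrophils moved in part in the same direction, with 6 of 44 intervals gained (13.6%) and 3 lost (6.82%). The summed rank of that list was 1060 to 1354 in saline and 1230 to 1495 in LPS libraries, and most of its defining starts had no tested interval, as given above. Near Cxcr2, a neutrophil chemokine receptor, saline had no peak and 6 of 7 LPS libraries did (ranks up to 56.6, difference 35.6 ± 9.17), while an interval in Csf3r, the receptor for granulocyte colony-stimulating factor, was lost (difference −35.5 ± 9.34).

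Interferon-stimulated genes had 10 gained (11.4%) and 2 lost (2.27%) of 88 intervals, and 7 of 26 genes with an interval had a gain. Ifi204 alone held 4 of the 10 gained intervals, and Isg15, Oasl1 and Oasl2 were the genes with a loss. Zbp1, a nucleic acid sensor, had saline ranks of 0, 31.8, 0, 0 and 15.8 over its gene end and LPS ranks of 40.5 to 70.2 (difference 44.3 ± 8.97, adjusted p = 0.0021). Irf7, the regulator of interferon genes, had saline ranks of 0, 40.6, 0, 51.1 and 44.0 and LPS ranks of 52.99 to 68.7 (difference 35.0 ± 9.00, adjusted p = 0.0127). Saline libraries thus differed among themselves at Irf7, 2 of 5 having no peak. Over the end of Ifi204, a DNA sensor of the interferon-inducible family, saline had no peak and 6 of 7 LPS libraries did (ranks up to 71.0, difference 42.2 ± 11.99, adjusted p = 0.0235). That call was lost without CON_SAL replicate 1, 2, 4 or 5 (adjusted p 0.0516 to 0.0592). Gbp2, a guanylate-binding protein, had saline ranks of 39.1, 41.9, 0, 33.7 and 34.0 and LPS ranks of 39.4 to 69.2, and its groups overlapped (difference 29.3 ± 8.56, adjusted p = 0.0276). Without CON_SAL replicate 3, the library with no peak, its difference was 21.9 (adjusted p = 0.0633), and without CON_LPS replicate 3, 4, 5 or 6 the adjusted p was 0.051 to 0.0619.

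AP-1 and immediate early genes had 17 gained (12.8%) and 3 lost (2.26%) of 133 intervals. Dusp2, a nuclear MAP kinase phosphatase, had no saline peak and LPS ranks of 42.5 to 84.4 (difference 64.5 ± 8.66). An interval within 20 kb of Fosb, an AP-1 subunit, rose from 4.72 to 33.7 up to 39.7 to 64.7 (difference 37.2 ± 8.48), but it lies over the end of the neighbouring Rtn2. Btg2, an antiproliferative immediate early gene, had saline ranks of 0, 25.2, 36.0, 22.8 and 18.5 nearby and LPS ranks of 43.6 to 60.6 (difference 34.4 ± 8.23). The glucocorticoid receptor and its textbook targets had 22 gained (13.4%) and 1 lost (0.61%) of 164 intervals, in 15 and 1 of 24 genes. Besides Dusp1, which the NF-kB list also holds, and the metallothionein genes, these included Zbtb16, a zinc finger factor (difference 49.8 ± 8.40), and Cdkn1a, a cell cycle inhibitor whose interval lies over the neighbouring Rab44 (difference 54.2 ± 8.04). Neither had a saline peak at these intervals.

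Homeostatic microglia genes lost intervals more often than they gained them. Of their 250 intervals 31 were lost (12.4%) and 11 gained (4.4%), with a median difference of −3.14 against −0.59 overall. Marker lists of other cell types had medians of the same sign and like size, −3.50 for oligodendrocytes (0.196 in the libraries of fewer than 20000 sorted cells), −3.41 for endothelial cells, −2.52 for neurons and −2.14 for astrocytes. With peaks ranked by fold, 11 were lost and 8 gained and the median difference was 1.31, and on the log2 fold scale it was 0.047, so the direction of the median depended on the measure. All 30 genes had an interval, and 19 had a loss, 9 a gain and 7 of these both. In the body of Tgfbr2, the receptor on which the homeostatic program depends, chr9:116122873-116123506 ranked 68.3, 43.7, 53.2, 38.7 and 59.4 in saline and had no LPS peak (difference −52.7 ± 7.74, adjusted p = 0.000101). In Golm1, a Golgi protein, chr13:59672226-59672584 ranked 39.1 to 60.9 in saline and had no LPS peak (difference −48.5 ± 7.23). Golm1 had 1 gained and 1 lost of 11 intervals, and its start was not called (difference −8.14, adjusted p = 0.586 by limma). Slco2b1, an organic anion transporter of microglia, went the other way at its start, from saline ranks of 0, 47.8, 11.7, 0 and 0 to LPS ranks of 55.0 to 75.7 (difference 54.3 ± 8.83). Starts of other core genes were not called, with Sall1 at −3.17 (adjusted p = 0.318) and Cx3cr1 at −5.21 (adjusted p = 0.547).

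Genes of disease-associated microglia and lipid handling had 25 gained (15.2%) and 5 lost (3.05%) of 164 intervals, in 18 and 4 of 28 genes. An interval within 20 kb of Apoe, the lipid carrier, and 686 bp from an end of Apoc1 had saline ranks of 0, 27.3, 0, 0 and 0 and LPS ranks of 52.3 to 82.4 (chr7:19693345-19693933, difference 64.8 ± 8.14, adjusted p = 1.78e-05). Lpl, a lipoprotein lipase, had no saline peak and LPS ranks of 34.3 to 63.2 (difference 52.8 ± 8.46). An interval near the lipid receptor Trem2, closer to Treml1, rose by 52.04 ± 8.89. An interval within 20 kb of Axl, a receptor for dying cells, fell by 43.1 ± 9.35 and lies inside Hnrnpul1.

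Myeloid transcription factors were split, with 19 gained (7.12%) and 15 lost (5.62%) of 267 intervals, close to the shares over all intervals. Gains in gene bodies included Irf2, with no saline peak and LPS ranks of 61.5 to 78.4 (difference 69.9 ± 7.46), and Runx1 (difference 61.0 ± 8.77). Within 20 kb, Irf2 had 1 gained and 1 lost of 16 intervals, and Runx1 2 gained and 1 lost of 18. Ets2 had a gain outside the gene (difference 48.8 ± 8.76). Ets1, a related factor best known from lymphocytes, had 3 gained and 1 lost of 14 intervals. At the lost one, chr9:32716001-32716499 ranked 65.9, 64.6, 65.4, 54.2 and 64.0 in saline and 0 to 37.1 in LPS (difference −52.3 ± 8.71, adjusted p = 0.000367). The TGF-beta pathway had 13 gained (9.77%) and 10 lost (7.52%) of 133 intervals. Ltbp1, a carrier of latent TGF-beta, and Acvrl1, a receptor of the family, gained intervals without any saline peak (differences 56.0 ± 8.29 and 53.04 ± 8.85), while all 5 called intervals named by Tgfbr2 were lost.

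Actin and migration genes had 32 gained (10.7%) and 10 lost (3.36%) of 298 intervals. Gains included Coro1c, Fmnl2 and Rhob (differences 58.1, 55.2 and 56.3), and Rhob had 1 gained and 1 lost of 6 intervals. Vesicle and lysosome genes had 22 gained (11.3%) and 3 lost (1.54%) of 195, with the protease Ctsc (52.6 ± 6.93), the GTPase gene Rab20 (51.8 ± 6.97) and the endosomal Ehd1 (49.0 ± 8.05). Phagocytosis and complement genes had 15 gained (9.74%) and 5 lost (3.25%) of 154, with gains of 54.3, 52.1 and 42.9 near Scarb1, Itgam and C3ar1, the last closer to Necap1. Amino acid and redox genes had 13 gained (10.2%) and 4 lost (3.15%) of 127. Ncf4, a subunit of the phagocyte oxidase, and Slc7a11, the cystine transporter, had no saline peak and rose by 62.9 ± 8.06 and 47.0 ± 8.11, whereas Srm, spermidine synthase, lost its peak in every LPS library (difference −48.8 ± 7.29).

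Glycolysis and hypoxia genes had 11 gained (9.48%) and 6 lost (5.17%) of 116 intervals, against 6.73% and 5.21% of all intervals. Pfkfb3, a regulator of glycolysis, alone held 5 of the 11 gained and 1 of the 6 lost intervals. The gains were led by Pfkfb3 (70.0 ± 7.78), Hk2 (49.4 ± 9.53) and Eno1 (40.6 ± 8.82). Purinergic and chemotactic receptors had 16 gained (9.3%) and 15 lost (8.72%) of 172, both above the shares over all intervals. Of 30 genes 14 had a gain, 13 a loss and 8 of these both. Gains were 50.7 within 20 kb of Fpr1 (closer to Fpr2), 46.5 in Adora2a and 44.7 within 20 kb of P2ry6 (closer to P2ry2). Losses included 3 of 13 intervals within 20 kb of P2ry12, which had no gain, and 2 of 6 of Gpr183, which had 1 gain. Antigen presentation genes had 3 gained (2.7%) and 1 lost (0.901%) of 111, below the shares over all intervals, with gains near Ctss (40.4 ± 6.22), closer to Ctsk, and at Erap1 (15.8 ± 3.02). The 1 loss was over the end of B2m, the light chain of class I molecules, from 85.4 to 91.1 in saline to 66.9 to 86.4 in LPS (difference −9.40 ± 2.80, adjusted p = 0.0307). It was lost without CON_SAL replicate 1, 3, 4 or 5 or CON_LPS replicate 1 or 4 (adjusted p 0.0524 to 0.0878). Housekeeping genes had 3 gained and 5 lost of 90. Border-associated macrophage, lymphocyte, neuron, astrocyte, oligodendrocyte and endothelial lists had 1 to 3 gained and 1 to 5 lost intervals each, of 34 to 50. Losses made up 10.0% of the neuron, 8.82% of the astrocyte and 7.14% of the border-associated macrophage intervals, above the 5.21% of all intervals, and 2.22% to 4.88% of the other 3 lists. In the neuron and astrocyte lists the balance of gains and losses turned in 3 and 8 of 24 alternatives. In the 5 libraries of more sorted cells alone, where losses outnumbered gains over all intervals, they also did so in the interferon-stimulated (0 gained, 1 lost), transcription factor (1 and 5), glycolysis (0 and 2), actin (1 and 4) and monocyte and neutrophil (0 and 3) lists. The NF-kB (2 and 0), cytokine (3 and 1), AP-1 (2 and 0) and disease-associated (3 and 1) lists had more gains there, and the homeostatic list more losses (2 and 10).

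**Figure D4:**
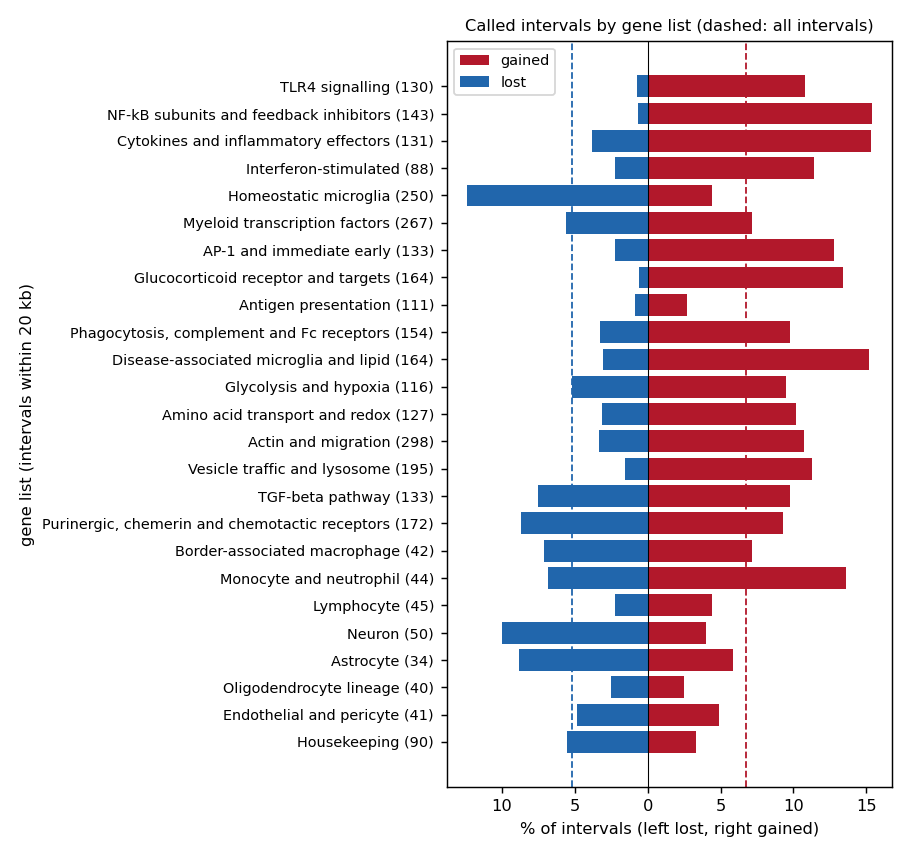
Share of the intervals within 20 kb of each gene list (y axis, number of intervals in brackets) that was gained (red, to the right) or lost (blue, to the left), in %, with dashed lines at the 6.73% and 5.21% of all intervals. The NF-kB, cytokine and disease-associated lists reach 15.4%, 15.3% and 15.2% gained, and the homeostatic list 12.4% lost.

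Several loci changed at many intervals at once. Pfkfb3 had 7 gained and 2 lost of 20 named intervals, Notch2, a receptor of cell-cell signalling, 6 gained and none lost of 15, and Zeb2, a myeloid transcription factor, 5 gained and 2 lost of 17. Cflar, Prex1, Smad3, Tns3 and Zmiz1 each had 5 gained and 1 lost. Among the losses Pip4k2a, a phosphoinositide kinase, had 5 lost and 4 gained of 25, and Glul, glutamine synthetase, had 5 lost and none gained of 9. Tgfbr2 and Gm32436 also had 5 lost and none gained, and Ccdc93 had 4 lost of 6. Within Pip4k2a, chr2:18923155-18923410 ranked 27.5 to 52.7 in saline and had no LPS peak (difference −41.0 ± 7.05), while chr2:18917323-18917662 rose by 42.5 ± 8.88. Of 13377 genes with a named interval, 84 had at least 3 gained and none lost, and 21 had at least 2 in each direction. At Smad3, a transducer of TGF-beta, an interval with no saline peak rose to 47.3 to 80.3 (chr9:63850100-63850829) and another, chr9:63835308-63835502, lost its saline peaks of 18.9 to 44.7 in every LPS library. At Cflar, an inhibitor of caspase 8, one rose by 69.0 ± 7.40 and another fell by 30.8 ± 6.49.

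No locus could be called changed in control offspring only. The difference between the LPS effects of control and MIA offspring, an interaction term in limma over all 23 libraries, passed an adjusted p of 0.05 at no interval (0%). The smallest adjusted p was 0.987, with 1801 intervals at an unadjusted p under 0.05, and ranking by fold also gave no call, with 1609 intervals at an unadjusted p under 0.05. In MIA offspring 3103 intervals were gained (7.98%) and 2036 lost (5.24%) by that fit over 23 libraries. For control offspring the same fit gave 3029 gained and 2536 lost. The control calls used below, 2614 gained and 2025 lost, came from the fit to the 12 control libraries. Of the intervals gained in control offspring 2578 of 2614 changed in the same direction in MIA offspring and 1886 (72.2%) were called there. Of those lost, 1943 of 2025 had the same direction and 916 (45.2%) were called. The 1886 shared gains were 60.8% of the gains called in MIA offspring at these intervals, and the 916 shared losses 45.0% of the losses. The intervals came from peaks of the 12 control libraries, so regions with peaks in MIA libraries alone were not tested. No interval was called in opposite directions.

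The mean difference over the intervals called in control offspring was 34.0 ranks for gains and −29.3 for losses, against 31.4 and −21.4 at the same intervals in MIA offspring. Intervals chosen by the call in MIA offspring had means of 34.6 and −28.5 there and 28.6 and −21.6 in control offspring. Each set is larger in the group in which it was chosen.

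**Figure D5:**
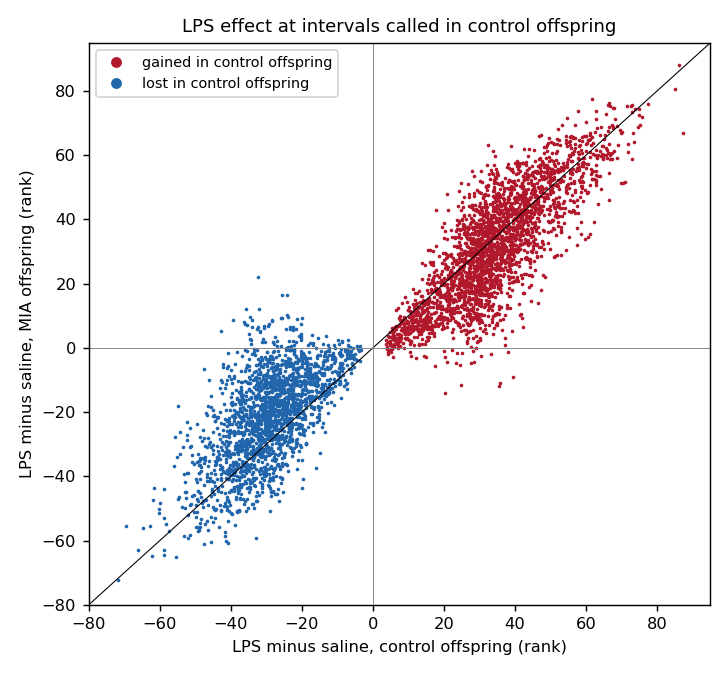
LPS minus saline difference in openness rank in control offspring (x axis) and MIA offspring (y axis) at the 2614 gained (red) and 2025 lost (blue) intervals called in control offspring, each point an interval and the line marking equal differences. Most points share their sign on both axes, and no interval passed the test of the difference between them.

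The called intervals with the smallest interaction p are given as ones that did not pass. Near Cxcl12, a chemokine for CXCR4, chr6:117166940-117167088 had saline ranks of 48.5, 58.5, 41.5, 46.1 and 3.12 and no LPS peak in control offspring (difference −39.5 ± 8.20), while the difference in MIA offspring was 8.69. Il6, the gene of a central LPS-induced cytokine, had 1 gained and 1 lost of 5 intervals. At the lost one, chr5:30014673-30014872 ranked 27.8 to 46.6 in saline and had 2 LPS peaks (difference −34.0 ± 7.73), against 8.80 in MIA offspring. Near Zeb2, Rbx1, Ust and Clcn5 the differences were −24.3, 19.7, −20.2 and −25.6 in control offspring and 16.6, 6.67, 3.73 and 16.4 in MIA offspring. All 6 had an adjusted interaction p of 0.987 by limma. The calls in control offspring at Zeb2 and Clcn5 were lost when single libraries were left out. Without CON_SAL replicate 4 or 5, or CON_LPS replicate 1, 4 or 6, the adjusted p at Zeb2 was 0.051 to 0.066, and at Clcn5 9 of the 12 libraries had this effect (adjusted p 0.0777 to 0.124).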

How the data were processed

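Peak lists of 12 ATAC-seq libraries were compared, with 11 more for the difference between offspring. The authors made them with cutadapt, Bowtie2, Picard, SAMtools, MACS2 and DiffBind on mm10 (GRCm38), per the submitters' processing notes, which name no versions. Each deposited list holds 1 library's peaks, with a fold (a ratio over background) and a −log10 p and −log10 q per peak, all the authors' own values. Read counts were not used here, so depth is unknown and no counting interval can be given.

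The best 33900 peaks per list on chromosomes 1 to 19 and X were ranked by −log10 p and merged (overlap of at least 1 base) into 59665 intervals, of which 38869 had a peak in at least 3 of 12 libraries. Ranks were compared with limma 3.58.1 (trend) in R 4.3.3, fitted to both control groups, and presence by Fisher's exact test (scipy 1.17.1), with Benjamini-Hochberg adjustment at 0.05. The difference between offspring was an interaction over all 23 libraries. The limma fit to both control groups was checked on simulated data. These had normal noise of the same SD in both groups, and differences only at intervals of middle mean rank. Groups of unequal spread, as where every saline rank is 0, were not modelled as such. No such check is reported here for Fisher's exact test, the interaction or the permutation tests. Named intervals were the 12 gained and 12 lost with the largest difference that were called by both rankings with groups not overlapping, 1 per gene; the 8 and 8 with a peak in all 12 libraries; up to 4 per gene list; the 8 genes with most gained and 8 with most lost intervals and 6 with both; and the 6 smallest interaction p. For each list the text gives some of those 4. One lost interval with a peak in all 12 libraries is not reported here. The gene-start intervals were chosen after their values had been seen. The comparison, lists and tests were chosen with earlier results of these data known. Gene extents and starts came from RefSeq (GRCm38.p6), where 79.9% of 21631 protein-coding genes have a start. Alternatives covered the ranking, list length, interval definition, filters, scale, sorted cells, identity numbers in the labels, a replicate block and each library left out.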

Additional observations from a re-analysis of the deposited data

Results flagged for a closer look

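At 45 of 262 groups of libraries looked at (17.2%), over 127 named intervals, the openness rank of 1 library stood apart from the rest of its group by Dixon's criterion, which chance meets in about 5% of groups. Of these groups, 21 were saline and 24 LPS, and in 11 and 7 of them the library was the only one with a peak. The 127 intervals hold fewer groups than 262, so some entered more than once and the 17.2% is approximate. The intervals were chosen by their values and hold many ranks of 0, so the 5% is no reference for them. In CON_SAL replicate 1 the ranks were 13.0 near Smim14, 9.17 near Slc37a3, 15.1 near Ccl2, 4.00 near Runx1 and 22.3 near Trem2. In CON_SAL replicate 2 the ranks were 8.09 near Ikbke, 11.8 near Map3k6, 1.04 near Scarb2, 28.1 near Hk2, 27.3 near Apoe, 47.8 near Slco2b1 and 0 near Ust. In CON_SAL replicate 3 the ranks were 0 near Gbp2, 46.2 near Tmem150c and 26.7 near Axl. In CON_SAL replicate 4 the ranks were 31.2 near Pfkfb3, 6.56 near Tmem131l, 54.2 near Ets1, 37.7 near Rhob and 17.5 near Nfkbiz. In CON_SAL replicate 5 the rank was 8.38 near Traf3. In CON_LPS replicate 1 the ranks were 18.5 near Kcnk2, 76.2 near Rhov, 38.4 near Axl, 0.926 near Ust and 24.0 near Il12b. In CON_LPS replicate 2 the ranks were 22.9 near Zeb2, 21.4 near Eno1, 58.9 near Azin1 and 10.0 near Pygm. In CON_LPS replicate 3 the rank was 39.6 near Cmtm7. In CON_LPS replicate 4 the ranks were 28.99 near Il6 and 22.8 near Clcn5. In CON_LPS replicate 5 the ranks were 13.7 near Gimap6, 48.7 near Ntpcr and 37.1 near Ets1. In CON_LPS replicate 6 the ranks were 2.35 near Uba7, 21.8 near Gspt1 and 4.22 near Trem1. In CON_LPS replicate 7 the ranks were 17.5 near 1700025G04Rik, 12.6 near Angpt4, 20.6 near Trim33, 45.8 near Scarb1, 3.56 near Zfp454 and 36.2 near Ltbp1.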

How the results depend on the processing

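Against 4639 calls by rank, there were 2894 when peaks were ranked by fold, 1672 with lists of 16950 peaks, 3046 when intervals with 1 peak were tested, 2734 on the log2 fold scale and 2301 by the exact permutation test per interval. The libraries of fewer than 20000 sorted cells gave 536 and those of more cells 1266, with fewer samples in each fit. Among intervals with a peak in all 12 libraries (1383 calls) these counts were 661 by fold, 347 at 16950 peaks, 569 on the log2 fold scale, 747 by the exact test, and 158 and 148 in the classes of sorted cells. Presence (624 calls) gave 350 at 16950 peaks, 1224 without identity numbers 1 to 3, and 0 over all intervals with no restriction on the p they could reach. Leaving out 1 library gave 3204 to 4492 calls by rank, 949 to 1305 in the intervals with a peak in all 12, and 666 to 838 by presence. Without CON_SAL replicate 3, losses (2274) outnumbered gains (2218). Apart from the causes named, the cause was not tested. With the replicate block there were 3020 calls (1920 gained, 1100 lost), 903 of them in the intervals with a peak in all 12. Replicate numbers do not pair the libraries: correlations of deviations within numbers were −0.061 to 0.140, and no saline library correlated best with the LPS library of its own number. The block took the call from 25 of 179 named intervals, ranking by fold from 38, the log2 fold from 50, the exact test from 42, and each class of sorted cells from 117. Lists of 16950 peaks took it from 66 and left 29 more with no interval, and testing only intervals with 6 or more peaks left 10 with none. Where a named interval could be tested, its direction did not change under the alternatives run. The interaction made 0 calls by limma with any library left out, with 1502 to 2337 intervals at an unadjusted p under 0.05.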
